A study of Dendrobium catenatum with 16 samples.

Results

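Mannose-specific lectins are small plant proteins that bind mannose-containing sugar chains. The genes described here are 5 annotated with that name in the orchid Dendrobium catenatum, of 38 genes annotated as mannose-specific lectins, an agglutinin or curculin and of 28537 features in the larger count table. They were chosen by their annotation and by their measured values, among them the level in older plantlets, where some were the most abundant transcripts, and with earlier results for 6-BA in young plantlets known. For the 5 lectins, those levels and the 2 contrasts known beforehand (6-BA against water, and 6-BA averaged over NAA) are therefore given as a description, with no test. Messenger RNA was sequenced from young leaves, stems and shoots of plantlets grown on half-strength Murashige and Skoog medium with sucrose, agar and potato. In the first experiment, plantlets 2 months old received distilled water, 0.1 mg/L NAA (a synthetic auxin), 1.0 mg/L 6-BA (a synthetic cytokinin) or both hormones for 3 weeks, with 2 libraries in each of 4 groups. In the second, plantlets 9 months old received no 6-BA or 0.5, 1.0 or 2.0 mg/L of it for 2 or 4 weeks, with 1 library per condition. The untreated plantlets of both experiments grew on the same medium, which itself contains potato. Paired libraries are labelled biological replicates, but no label names their cultures, so p-values measure the spread between these libraries, which may be technical.

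Lectins of this family fold into a bulb-type domain that takes its name from monocot bulbs, where they can accumulate as storage proteins. The snowdrop lectin is the best known member, and it binds terminal mannose on glycoproteins of insects and microbes. In orchids and other monocots such lectins have been studied for storage and for defence, and Dendrobium stems are rich in mannose-containing polysaccharide. In the authors' annotation all 5 genes carry a D-mannose binding lectin domain. LOC110104045, LOC110101453 and LOC110113710 are described as mannose-specific lectin, and LOC110114174 and LOC110108726 as mannose-specific lectin-like. The protein database entry listed for LOC110113710 is an agglutinin of Aloe arborescens, and that for LOC110108726 is the snowdrop lectin LecGNA 2.

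The genes lay on 5 different scaffolds and none overlapped another annotated gene. In the authors' coordinates, which equal those of the RefSeq gene table for assembly ASM160598v2, LOC110104045 spanned NW_021319598.1 from 1264104 to 1264845 on the plus strand (742 bases) and LOC110101453 spanned NW_021318704.1 from 140100 to 140850 on the minus strand (751 bases). LOC110113710 lay on NW_021511668.1 from 153262 to 153981, plus strand, 720 bases. The 2 nearest genes on the same strand were also described as mannose-specific lectin-like, LOC110113708 at 4.16 kb and LOC110113712 at 7.19 kb. LOC110114174 lay on NW_021319178.1 from 24487108 to 24487614, minus strand, 507 bases, with LOC110114172 (mannose-specific lectin 3-like) at 48.7 kb and LOC110114180 (mannose-specific lectin 2-like) at 62.3 kb on the same strand. LOC110108726 was the single gene of its scaffold, NW_021476880.1, from 248 to 998 on the plus strand (751 bases). Whether LOC110104045 and LOC110101453 are near-identical copies, whose reads could be divided between them in the authors' counting, was not checked, since no sequence was used here, and the split between them is uncertain to that extent. No source used here states the strandedness of the libraries.

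Library totals ran from 34289743 to 74461337 counts in young plantlets and from 15090869 to 16257836 in older ones. As a check of the labelled tissue, 19 of 19 leaf photosynthesis markers (chlorophyll a-b binding proteins and the small Rubisco subunit) were detected in every library, at a summed level of 27304 to 33708 counts per 1000000 library counts (CPM) in young and 14546 to 35871 CPM in older plantlets. Of the other lists, 34 to 41 of 43 dividing-cell genes, 5 or 6 of 6 root genes and 1 to 5 of 5 floral genes were detected per library. Floral homeotic genes, 5 in number, summed to 1.25 to 2.12 CPM in young and 0.129 to 3.18 CPM in older plantlets. Dividing-cell markers were 43 genes for histones H3 (H3.3 included) and H4, A- and B-type cyclins, replication licensing factors and KIN-12 kinesin-like proteins. They summed to 2596 to 3291 CPM in young plantlets but spread from 1281 to 5774 CPM in older ones. The H3.3 genes need not mark division, and abundant genes weigh most in the sum. The root list, 6 genes described as SHORT-ROOT, SCARECROW or Casparian strip proteins, summed to 74.3 to 106.9 CPM in young and 47.1 to 169.1 CPM in older plantlets. The labels list no root, and these sums alone cannot show that root tissue was present. Bulk libraries cannot tell a lower share of cells of a type from less RNA per cell.

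In older plantlets 2 of the lectins dominated the libraries. LOC110104045 held 31323 CPM without 6-BA, 8001 CPM at 0.5 mg/L, 43262 CPM at 1.0 mg/L and 38076 CPM at 2.0 mg/L after 2 weeks, and 2342, 34948, 22873 and 13777 CPM after 4 weeks at the same doses. It ranked first of all genes by counts in 6 of 8 older libraries and first per kilobase of gene length in 7 of 8. LOC110101453 held 30002, 7302, 42827 and 33579 CPM after 2 weeks and 2249, 33587, 21202 and 10802 CPM after 4 weeks. Both genes were lowest in the untreated library at 4 weeks and low in the 0.5 mg/L library at 2 weeks, and their lowest and highest libraries differed 18.5-fold and 19.0-fold. Together they took 8.61% of all counts at 1.0 mg/L and 2 weeks (95% Wilson interval 8.595 to 8.623%) and 0.459% in the untreated library at 4 weeks (0.4557 to 0.4625%). These intervals cover counting error alone.

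LOC110113710, the lectin matched to the Aloe agglutinin, spread less over the older libraries, 5.31-fold from lowest to highest. Its level in older plantlets was 4547, 4409, 1359 and 3682 CPM at 2 weeks and 6852, 1377, 1871 and 7218 CPM at 4 weeks, in order of dose. The 3 low libraries, at 1359 to 1871 CPM, were those of 1.0 mg/L at both weeks and 0.5 mg/L at 4 weeks, and the other 5 lay at 3682 CPM or above. In the untreated library at 4 weeks it stood above every other lectin, at 9516 CPM per kilobase against 3156 CPM per kilobase for LOC110104045.

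LOC110108726, the gene matched to the snowdrop lectin, varied most of the 4 lectins with more than 3 counts in each older library. It held 17.3, 4.57, 428.9 and 30.7 CPM at 2 weeks and 59.7, 1040, 2604 and 9.05 CPM at 4 weeks. Its lowest and highest libraries differed 569-fold, and the 3 high libraries were those of 1.0 mg/L at both weeks and 0.5 mg/L at 4 weeks, where LOC110113710 was low. LOC110114174 was close to undetected in older plantlets, with 3, 0, 1 and 2 counts at 2 weeks and 3, 0, 0 and 2 counts at 4 weeks. A count of 0 allowed up to 0.185 CPM in the 0.5 mg/L libraries and up to 0.199 CPM at 1.0 mg/L and 4 weeks, taking 3 counts as the floor.

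**Figure D1:**
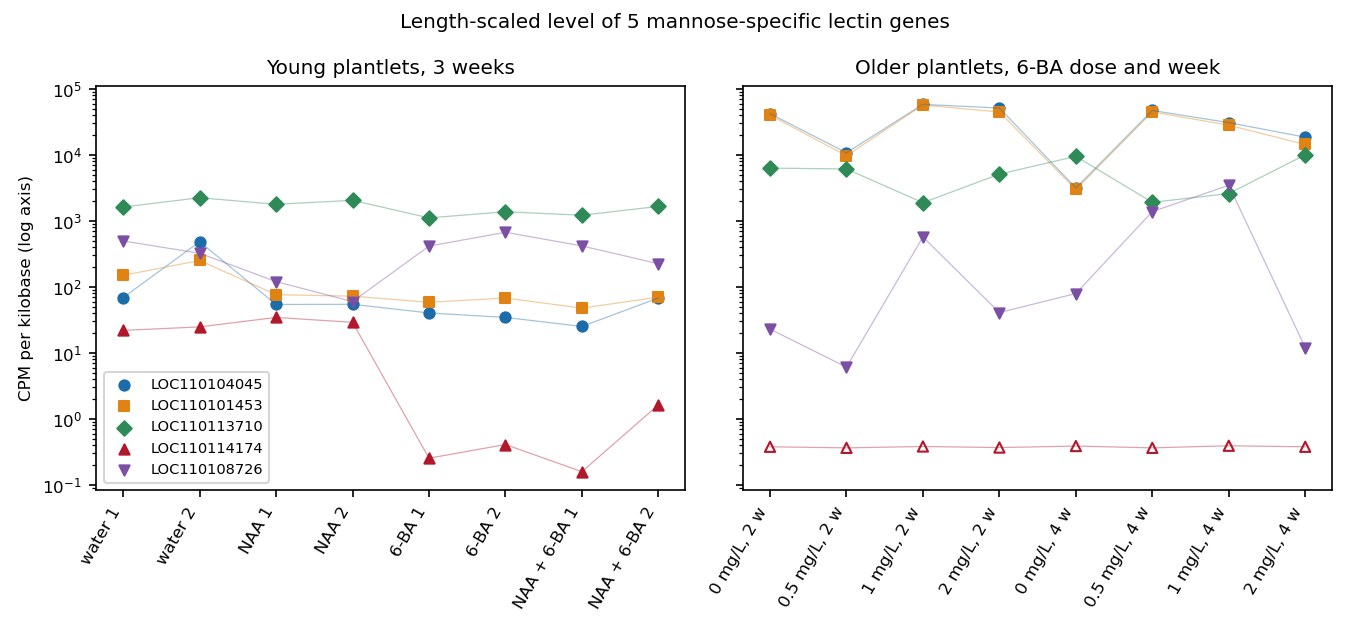
Length-scaled level (CPM per kilobase, log axis) of each lectin in each of 8 young (left) and 8 older (right) libraries. Open triangles stand at the 3-count floor for LOC110114174, which had 3 or fewer counts in every older library. LOC110113710 leads in 8 of 8 young libraries, and LOC110104045 leads in 7 of 8 older ones.

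The order of the genes differed between the experiments. In young plantlets the median over 8 libraries was 1642 CPM per kilobase for LOC110113710, 369.5 for LOC110108726, 71.2 for LOC110101453, 54.4 for LOC110104045 and 11.8 for LOC110114174. The ranges of LOC110101453 (47.8 to 251.7) and LOC110104045 (25.2 to 483.9 CPM per kilobase) overlapped, as did that of LOC110108726 (60.0 to 673.0) with both and that of LOC110114174 (0.159 to 34.5) with LOC110104045, while LOC110113710 (1112 to 2247) lay above the other 4. In older plantlets the medians were 36520 CPM per kilobase for LOC110104045, 34090 for LOC110101453, 5619 for LOC110113710, 60.2 for LOC110108726 and 0.187 for LOC110114174. There the ranges of the first 4 genes overlapped, since LOC110108726 reached 3467 CPM per kilobase and LOC110104045 and LOC110101453 fell to 3156 and 2994, and LOC110114174, at 0.388 or less, lay below them.

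Every older library exceeded every young one for LOC110104045 and LOC110101453, from lectins chosen partly for their level in older plantlets. How many of all genes separate the experiments in this way was not counted. The median CPM was 672-fold higher in older plantlets for LOC110104045 (27098 against 40.4 CPM) and 479-fold higher for LOC110101453 (25602 against 53.5 CPM). For LOC110113710 the median was 3.42-fold higher, with overlapping ranges. LOC110108726 went the other way, with a median of 277.5 CPM in young and 45.2 CPM in older plantlets, but its older range enclosed the young one. LOC110114174 held 11.1 to 17.5 CPM in young libraries without 6-BA and at most 0.197 CPM in older ones, but the young libraries with 6-BA began at 0.0806 CPM and overlapped the older range. Without hormone the young plantlets had 51.2 and 359.1 CPM of LOC110104045 and the older ones 2342 to 31323 CPM. Age, experiment and sequencing run cannot be told apart here, and no test was made across the experiments.

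**Figure D2:**
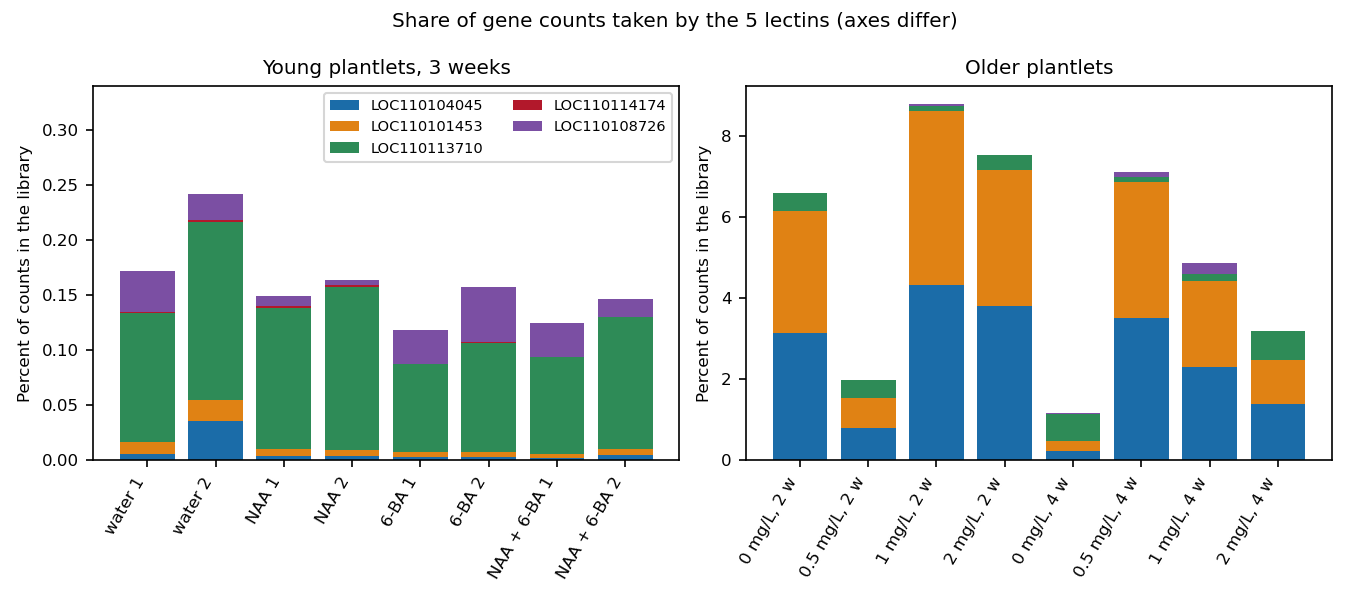
Percent of all gene counts taken by the 5 lectins in young (left) and older (right) libraries, stacked by gene on linear axes of different scale. The total runs from 0.119 to 0.242% in young and from 1.15 to 8.79% in older libraries.

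The composition of the lectin pool followed these levels. The 5 genes together took 0.119 to 0.242% of counts in young libraries, most of it LOC110113710. In older libraries they took 6.59, 1.97, 8.79 and 7.54% at 2 weeks and 1.15, 7.10, 4.86 and 3.18% at 4 weeks, in order of dose. Against all 38 genes of the annotated family, the 5 accounted for 75.7 to 87.7% of family counts in young and 93.4 to 99.4% in older libraries.

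LOC110104045 and LOC110101453 kept almost the same ratio in older plantlets. The count of the first divided by that of the second lay between 1.01 (1.0 mg/L, 2 weeks) and 1.28 (2.0 mg/L, 4 weeks). In young plantlets the same ratio ran from 0.454 in water replicate 1 to 1.90 in water replicate 2. Over the 8 older libraries the genes had r = 0.997 on log2(CPM + 1), and each was the gene most like the other among 12640 described genes with a mean of at least 10 CPM. The points share their library totals, of which the pair itself makes up as much as 8.61%, and any reads divided between near copies.

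**Figure D3:**
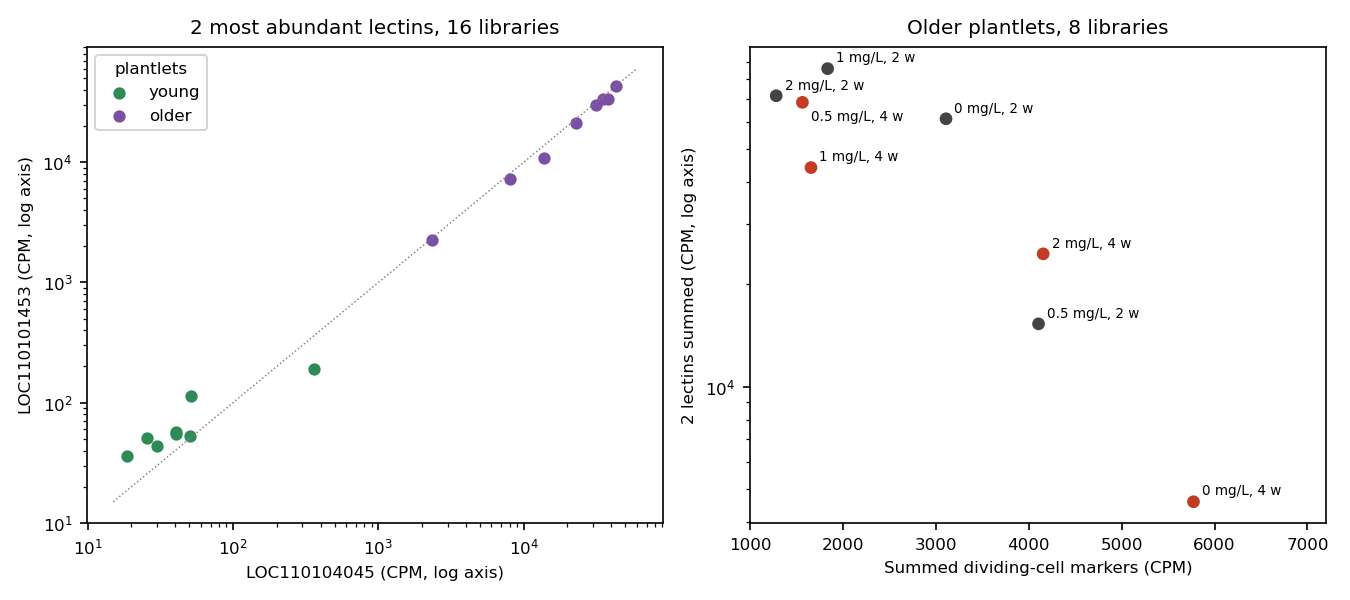
Left, CPM of LOC110104045 and LOC110101453 in 16 libraries on log axes, with the dotted line marking equal CPM. Right, the sum of both genes (log axis) against the summed dividing-cell markers in 8 older libraries, dark grey for 2 and red for 4 weeks. The 3 libraries with the lowest lectin sum have the 3 highest marker sums.

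Dividing-cell markers moved against the abundant pair in older plantlets. The pair summed to 4591 CPM where the markers summed to 5774 CPM (untreated, 4 weeks), to 15303 CPM where they summed to 4106 CPM (0.5 mg/L, 2 weeks) and to 24578 CPM where they summed to 4156 CPM (2.0 mg/L, 4 weeks). In the other 5 libraries the markers summed to 1281 to 3110 CPM and the pair to between 44074 and 86089 CPM. The root-list genes likewise summed higher where the pair was low, at 121.1 to 169.1 CPM in the first 3 libraries and 47.1 to 77.0 CPM in the other 5. The leaf markers instead separated the weeks, at 26984 to 35871 CPM after 2 weeks and 14546 to 21090 CPM after 4 weeks. The part of cell or tissue composition in the lectin levels was not tested.

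In young plantlets LOC110114174 lay above 10 CPM in every library without 6-BA and below 1 CPM in every library with it. The 2 water libraries had 11.1 and 12.6 CPM and the 2 NAA libraries 17.5 and 14.8 CPM, while the 6-BA libraries had 0.129 and 0.208 CPM and those with both hormones 0.0806 and 0.830 CPM. The raw counts in the last 4 libraries were 7, 11, 6 and 48, so the size of the difference rests on few reads there. How many of all genes separate the 4 libraries with 6-BA from the 4 without it was not counted. On the log2 scale the difference was -6.14 ± 0.67 (SE) for 6-BA against water, -5.28 ± 0.58 for 6-BA added to NAA and -4.81 ± 0.57 for both hormones against water. Without the second library of both hormones, the difference for 6-BA added to NAA was -7.66 and that for both hormones against water -7.19. The gene was chosen with its 6-BA response known, so its contrasts that involve 6-BA are given as sizes, with no test.

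LOC110104045 had 51.2 and 359.1 CPM with water, 40.2 and 40.5 CPM with NAA, 29.9 and 25.6 CPM with 6-BA, and 18.7 and 50.5 CPM with both. Its water libraries differed 7.02-fold, and each of the other libraries lay below both of them. The log2 difference for 6-BA against water was -2.90 ± 0.74, and without water replicate 2 it was -0.90 ± 0.43. LOC110101453 had 112.6 and 189.0 CPM with water, 57.3 and 54.4 CPM with NAA, 43.9 and 51.0 CPM with 6-BA, and 35.9 and 52.6 CPM with both. Its water libraries lay above the 6 hormone libraries. The share of all genes with such an order was not counted. Both lectins were chosen with their 6-BA difference from these water libraries known, so part of the order follows from that choice.

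For 6-BA against water the log2 difference was -1.69 ± 0.24 for LOC110101453. LOC110113710 went from 1170 and 1618 CPM with water to 800.5 and 991.7 CPM with 6-BA, a log2 difference of -0.66 ± 0.19. LOC110108726 had 373.3 and 243.1 CPM with water and 311.9 and 505.4 CPM with 6-BA, overlapping groups with a difference of 0.39 ± 0.37. Averaged over NAA, the 6-BA difference was -5.60 ± 0.45 for LOC110114174, -1.60 ± 0.70 for LOC110104045, -1.04 ± 0.27 for LOC110101453, -0.56 ± 0.14 for LOC110113710 and 1.08 ± 0.35 for LOC110108726. Without water replicate 2 the averaged difference was -0.74 for LOC110101453 and -0.43 for LOC110113710.

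**Figure D4:**
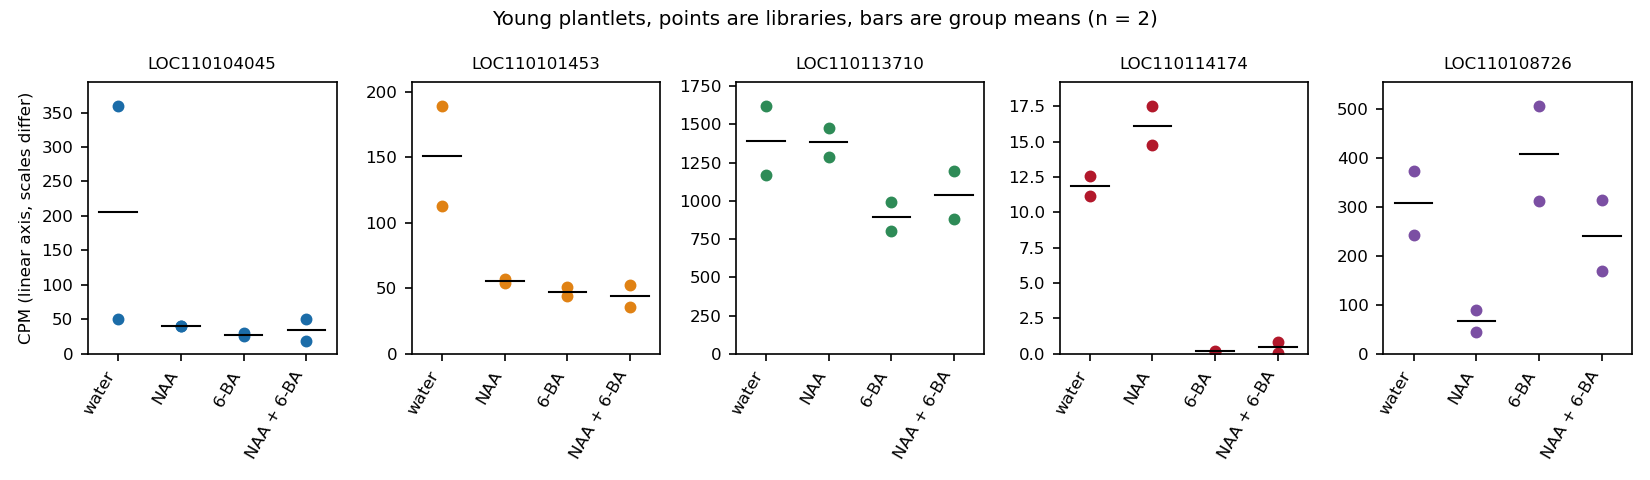
CPM of each lectin in the 4 groups of young plantlets, on linear axes from 0 with their own scales. Points are single libraries and bars are means of 2. Water replicate 2 stands apart for LOC110104045 at 359.1 CPM, and the 4 libraries with 6-BA lie under 1 CPM for LOC110114174.

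NAA alone lowered LOC110101453 and LOC110108726. LOC110108726 had 373.3 and 243.1 CPM with water and 90.4 and 45.1 CPM with NAA. It fell by 2.16 ± 0.39 on the log2 scale (edgeR, adjusted p = 0.0217). LOC110101453 fell by 1.41 ± 0.24 (edgeR, adjusted p = 0.0157). These 2 of 5 lectins compare with 0.824% of genes called lower. The water libraries also enter the 2 cytokinin contrasts known when the lectins were chosen. The NAA libraries enter the contrast averaged over NAA. The p-values for NAA against water and this share are therefore not independent of that choice. Both calls depended on single libraries. LOC110101453 had an adjusted p of 0.0663 (edgeR) without water replicate 2 (-0.99), 0.0717 without NAA replicate 1 and 0.0526 without NAA replicate 2. LOC110108726 had 0.151 without water replicate 1 and 0.0671 without NAA replicate 2, from the same tool. LOC110104045 (-2.32 ± 0.72, edgeR adjusted p = 0.187) did not pass. Without water replicate 2 its difference was -0.32, and without water replicate 1 it was -3.13 and passed (edgeR, adjusted p = 0.0214). LOC110113710 had 1170 and 1618 CPM with water and 1284 and 1478 CPM with NAA, a log2 difference of 0.01 ± 0.19. LOC110114174 differed by 0.47 ± 0.44 (edgeR, adjusted p = 0.768).

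With both hormones against water, LOC110101453 fell by 1.79 ± 0.24 (edgeR, adjusted p = 0.00218), a call that held with each library left out in turn. It was called lower alone among the 4 lectins tested (LOC110114174 left out), beside 4.06% of genes. LOC110104045 had a difference of -2.59 ± 0.73 with an adjusted p of 0.065 from edgeR, which became 0.0432 with no low-count filter. The difference was -3.40 and passed (adjusted p = 0.00424) without water replicate 1, and was -0.58 without water replicate 2. By edgeR, LOC110113710 (-0.45 ± 0.19, adjusted p = 0.219) and LOC110108726 (-0.38 ± 0.37, adjusted p = 0.632) did not pass. This comparison shares its water libraries with 6-BA against water and NAA against water. All its libraries also enter 6-BA averaged over NAA, known when the lectins were chosen. Its p-values are therefore not independent of that choice.

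Adding 6-BA to NAA raised LOC110108726, from 90.4 and 45.1 CPM to 314.0 and 168.7 CPM, by 1.78 ± 0.39 on the log2 scale (edgeR, adjusted p = 0.0282). Of the same 4 lectins, 1 was thus called higher, beside 1.94% of genes, and 0 lower, beside 3.64%. This comparison is part of 6-BA averaged over NAA, which was known when the lectins were chosen. Its p-values and shares are therefore not independent of that choice. The rise of LOC110108726 had an adjusted p of 0.0879 without NAA replicate 2 (1.37) and 0.206 without the first library of both hormones (1.28), by edgeR. LOC110101453 (-0.38 ± 0.23), LOC110113710 (-0.46 ± 0.19) and LOC110104045 (-0.27 ± 0.70) did not pass. The interaction of NAA and 6-BA was called for 0 of these 4 lectins by edgeR and by DESeq2, beside 0.52% of genes by edgeR. The interaction contains 6-BA against water with its sign reversed, so its values and p-values are not independent of that choice either. An unadjusted p below 0.05 was met by 1581 of 19420 genes, LOC110104045, LOC110101453 and LOC110108726 among them, with log2 values of 2.63 ± 1.00, 1.30 ± 0.33 and 1.40 ± 0.53 and adjusted p of 0.479, 0.173 and 0.482. For NAA averaged over 6-BA, 0 of 5 lectins and 0% of all genes were called by edgeR, with 1908 genes at an unadjusted p below 0.05 and 214 genes, none of them a lectin of the 5, called by DESeq2. LOC110108726 had the lowest unadjusted p of the 5 there, at a log2 difference of -1.46 ± 0.36 (edgeR, adjusted p = 0.289).

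In older plantlets the 6-BA libraries at 4 weeks held more of the abundant pair than the untreated one, and those at 2 weeks did so at 2 of 3 doses. At 4 weeks LOC110104045 was 14.9-, 9.77- and 5.88-fold above its untreated library at 0.5 mg/L, 1.0 mg/L and 2.0 mg/L respectively. At 2 weeks it was 3.91-fold below at 0.5 mg/L and 1.38- and 1.22-fold above at 1.0 and 2.0 mg/L. LOC110101453 followed it, at 14.9-, 9.43- and 4.80-fold above after 4 weeks and 4.11-fold below, 1.43-fold above and 1.12-fold above after 2 weeks. The large ratios at 4 weeks share 1 untreated library, in which the pair was 13.4- and 13.3-fold lower than in the untreated library of 2 weeks.

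LOC110113710 was below its untreated library in 5 of 6 dose and week combinations. It was 4.98- and 3.66-fold below its untreated library at 0.5 and 1.0 mg/L after 4 weeks and 3.35-fold below at 1.0 mg/L after 2 weeks. It was 1.03-fold below at 0.5 mg/L and 1.23-fold below at 2.0 mg/L after 2 weeks, and at 2.0 mg/L 1.05-fold above after 4 weeks. LOC110108726 was 24.9-fold above its untreated library at 1.0 mg/L after 2 weeks, and 17.4- and 43.6-fold above at 0.5 and 1.0 mg/L after 4 weeks. At 2.0 mg/L it was 1.78-fold above after 2 weeks and 6.60-fold below after 4 weeks, and at 0.5 mg/L after 2 weeks 3.77-fold below. With 1 library per condition these ratios have no replicate check.

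**Figure D5:**
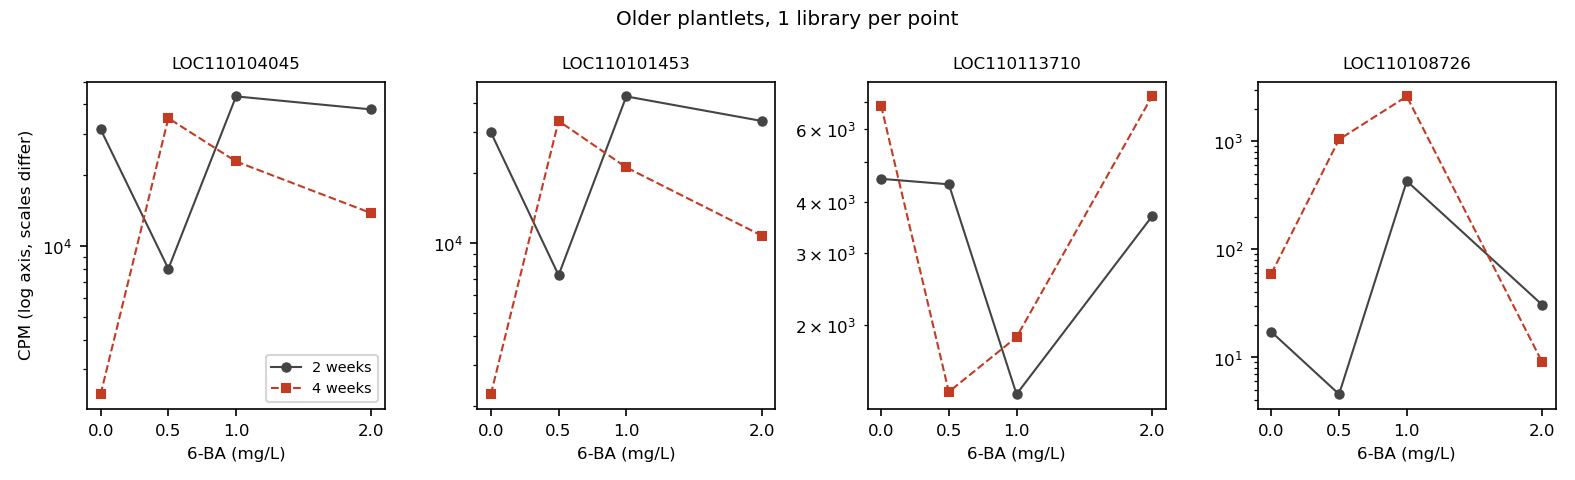
CPM (log axes, own scale for each gene) against 6-BA dose for 4 lectins in older plantlets, 1 library per point. Dark circles are 2 weeks and red squares are 4 weeks. LOC110104045 and LOC110101453 trace nearly the same lines, with the lowest point at 0 mg/L and 4 weeks, and LOC110113710 is low where LOC110108726 is high.

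Models that used the other libraries as replicates called none of the 4 lectins tested. LOC110114174 had too few counts to enter them. The share of genes called by edgeR was 0% for any dose against none, 0% for the dose slope and 0% for 4 against 2 weeks, with 498, 430 and 1116 of 21267 genes at an unadjusted p below 0.05, and DESeq2 called 6, 5 and 82 genes but none of the lectins. The fitted log2 differences for any dose were 1.32 ± 1.25 for LOC110104045, 1.28 ± 1.26 for LOC110101453, -0.67 ± 0.66 for LOC110113710 and 3.90 ± 2.35 for LOC110108726, each with an adjusted p of 0.856 by edgeR. For 4 against 2 weeks they were -1.19 ± 1.02, -1.22 ± 1.03, 0.09 ± 0.59 and 2.55 ± 1.68 in the same order. The dose slopes per mg/L were 0.36 ± 0.77, 0.27 ± 0.80, 0.08 ± 0.37 and 1.07 ± 3.15. The models carried a biological coefficient of variation of 0.499 for any dose against none, which includes departures from additive dose and week effects, against 0.1147 in the young plantlets.

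Among the other 33 annotated family genes, 14 had a mean level above that of the lowest of the 5 in either experiment. In older plantlets the most abundant was LOC110113712, the neighbour of LOC110113710, with 36.2 to 69.9 CPM in young and 236.1 to 874.8 CPM in older plantlets. In young plantlets it was LOC110114600, with 105.6 to 159.0 CPM in young and 0.499 to 132.1 CPM in older plantlets. LOC110095037, annotated as mannose-specific lectin-like, ranged from 4.14 to 136.8 CPM in young and from 0.371 to 157.7 CPM in older plantlets. LOC110113708, the other neighbour, stayed at or below 0.590 CPM in every library. LOC110114172, 48.7 kb from LOC110114174, was at or below 1.11 CPM.

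Of the family, 25 genes were tested in young plantlets. Of the 20 that are not among the 5 lectins, 7 were lower and 2 higher for 6-BA averaged over NAA (edgeR, adjusted p below 0.05), beside 7.46% lower and 5.92% higher of all 19303 genes tested. LOC110116213 fell by 4.32 ± 0.46 (edgeR, adjusted p = 0.000419), at no more than 1.46 CPM in any young library. LOC110113712 fell by 0.55 ± 0.15 (edgeR, adjusted p = 0.0383) and LOC110114172 by 1.81 ± 0.49 (adjusted p = 0.0398), while LOC110095037 rose by 1.85 ± 0.51 (adjusted p = 0.0401). LOC110114180, the second neighbour of LOC110114174, had a log2 difference of -0.21 ± 0.13 (edgeR, adjusted p = 0.317). For 6-BA against water, 3 of the same 20 genes were lower by edgeR, beside 4.2% of 19420 genes. Both contrasts were known beforehand, so the calls and adjusted p of these family genes are a description.

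Other groups linked to mannose, lectins, storage or defence were counted for 6-BA averaged over NAA, to be read against the shares over all genes of 5.92% higher and 7.46% lower. None of 11 genes for mannose and GDP-mannose supply passed. Of 26 tested genes for mannan synthesis and breakdown, 4 rose and 1 fell. The one that fell was LOC110100371, a mannan endo-1,4-beta-mannosidase 2-like gene (an enzyme class that cuts the mannan backbone), by 4.41 ± 0.29. Among those that rose was LOC110108629, a probable glucomannan 4-beta-mannosyltransferase 11 (which builds the backbone), by 1.54 ± 0.23. Other soluble lectins had 1 lower of 10 tested, the F-box protein PP2-B10 gene LOC110112843, by 0.45 ± 0.06. Lectin receptor kinases, which carry a lectin domain outside the cell, had 4 higher and 6 lower of 53, with LOC110093013 falling by 1.27 ± 0.13 and LOC110098770 rising by 0.79 ± 0.11. Genes listed by storage-protein words in their names had 1 higher and 3 lower of 14. The lower ones included the patatin-like genes LOC110101556 (-1.03 ± 0.13) and LOC110116244 (-1.06 ± 0.15). Such names do not by themselves show a storage role. Defence proteins had 6 higher and 5 lower of 49, including a thaumatin-like gene, LOC110104388 (-0.87 ± 0.11), and a pathogenesis-related protein 1-like gene, LOC110103563 (-1.88 ± 0.34). The medians of these lists lay between -0.13 and 0.10, beside 0.00 over all genes. The lists were chosen with earlier results known, and the named genes by the lowest p in this same contrast. Their counts and sizes are therefore a description.

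Genes with the most similar profile differed between the experiments, by Pearson's r of log2(CPM + 1) over 8 libraries. In young plantlets LOC110104045 was most like LOC110103662, a NEDD8-activating enzyme subunit (r = 0.986), a value of 0.928 without water replicate 2. LOC110101453 was most like LOC110096117, dnaJ protein ERDJ3A (0.973), LOC110113710 like LOC110096153, metacaspase-4 (0.976), and LOC110108726 like LOC110109286, protein PHYLLO (0.969). LOC110114174 was most like LOC110104892, RNA-binding protein 12-like (0.998). In older plantlets LOC110109238, tryptophan synthase alpha chain-like, came next after the partner gene for both LOC110104045 (0.977) and LOC110101453 (0.983). LOC110113710 was most like LOC110094009, copper methylamine oxidase (0.988), and LOC110108726 like LOC110103396, glutathione S-transferase U24-like (0.967), followed by the family gene LOC110095037 (0.961). The values within an experiment share library totals and are a description.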

How the data were processed

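Libraries were grouped by the hormone, dose, age and week that the labels state, and none was left out of the main fits. The deposited tables hold raw counts per gene and FPKM made by the authors. Deposited FPKM equalled counts per kilobase over library totals in young plantlets, but implied library sizes of 0.861 to 1.15 times the totals in older plantlets. Per the submitters' processing notes, HISAT2 2.0.6, Cufflinks 2.2.2 and edgeR were used, with no roles given. No source used here names the genome build or annotation release.

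From the counts, CPM were computed by library totals and divided by the deposited gene length in kilobases for comparisons between genes. Tests used edgeR 4.0.16 in R 4.3.3 (filterByExpr, TMM, quasi-likelihood test, Benjamini-Hochberg adjustment at 0.05 over all genes tested), with a 4-group model and an additive NAA and 6-BA model for young plantlets, and week plus 6-BA for older ones. For edgeR, each ± value is an approximate SE, the size of the log2 difference over the square root of its F statistic. The tests were tried on simulated data. For older plantlets the simulated coefficient of variation was below the fitted 0.499, so that trial does not cover the older tests. Alternatives used DESeq2 1.42.0, limma 3.58.1 on log2(FPKM + 1) and on log2(FPKM + 0.1), other scalings, no low-count filter and each library left out. Tables and plots used Python 3.11.15, pandas 2.3.3, NumPy 2.4.6, SciPy 1.17.1 and Matplotlib 3.10.9.

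The 5 lectins and the gene lists were chosen with earlier results of these data known. Other genes named were, per lectin, the 2 with the highest r of at least 10 mean CPM (the first is printed, or the next after a partner), per list the 2 with the lowest p among those called for 6-BA averaged over NAA, family genes above the lowest lectin, and family genes within 100 kb. The root, flower and dividing-cell marker lists were narrowed after the gene names they caught were read, removing scarecrow-like, agamous-like, APETALA2, ULTRAPETALA and calcyclin names. Columns of other samples numbered 0.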

Additional observations from a re-analysis of the deposited data

Results flagged for a closer look

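The differences at 1.0 mg/L 6-BA had opposite signs in young and older plantlets for both abundant lectins. LOC110104045 had log2 differences from the untreated group of -2.90 in young plantlets, 0.47 in older plantlets at 2 weeks and 3.29 at 4 weeks. For LOC110101453 the values were -1.69, 0.51 and 3.24. The young values are edgeR estimates with TMM scaling after 3 weeks. The older ones are plain CPM ratios of single libraries, without the TMM factors, which ran from 0.856 to 1.143 there. Both libraries of young plantlets with 6-BA lay below both water libraries, and both older libraries with 1.0 mg/L lay above the untreated library of their week. The young value of LOC110104045 rests on water libraries that differ 7.02-fold and is smaller without water replicate 2. At 2 weeks the older differences are 1.38- and 1.43-fold between single libraries. At 4 weeks both share 1 untreated library, in which these genes were 13.4- and 13.3-fold lower than at 2 weeks. The difference between ages was not tested, and age and experiment cannot be told apart.

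At 0.5 mg/L, 3 lectins moved in opposite directions at the 2 times in older plantlets, by at least 1 on the log2 scale each way. LOC110104045 was at -1.97 at 2 weeks and 3.90 at 4 weeks. LOC110101453 was at -2.04 and 3.90, and LOC110108726 at -1.92 and 4.12. The difference between the weeks was not tested, since each value compares 1 library with 1 library. Dividing-cell markers summed to 4106 CPM in the 0.5 mg/L library at 2 weeks and 1563 CPM in that at 4 weeks, beside 3110 and 5774 CPM in the untreated libraries, and their part in the difference was not tested.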

How the results depend on the processing

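The number of lectins called, counted here over all 5 with LOC110114174 included, stayed within 1.5 times of its reported value except as follows. For NAA averaged over 6-BA it went from 0 to 1 (LOC110108726) when simple effects of the 4-group model were averaged, and for NAA against water from 2 to 1 with the 2 most abundant lectins summed, an alternative chosen after seeing the data. With a library left out it ranged from 0 to 2 for NAA against water, from 1 to 3 for 6-BA averaged over NAA and from 1 to 2 for 6-BA added to NAA. Single calls also depended on the tool or filter, such as that of LOC110104045 for both hormones against water, which passed with no low-count filter (-2.583, edgeR adjusted p = 0.0432). For 6-BA against water and 6-BA averaged over NAA, which the choice of lectins used, calls describe the settings and test nothing. LOC110104045 for 6-BA against water did not pass with limma, and LOC110113710 for the same contrast passed with DESeq2.

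Every sign change was in a difference not called. LOC110113710 for NAA against water was -0.013 with library totals and -0.014 with totals without the 5 lectins. With limma on log2(FPKM + 1), LOC110114174 had an interaction of -0.03, LOC110113710 a 4 against 2 weeks value of -0.057 and LOC110108726 a dose slope of -0.322. With a library left out, LOC110113710 ranged from -0.201 to 0.262 for NAA against water, -0.058 to 0.413 for the interaction, -0.011 to 0.229 for NAA averaged over 6-BA, -0.573 to 0.354 for weeks and -0.347 to 0.438 for the dose slope. LOC110104045 ranged from -1.604 to 0.053 for NAA averaged over 6-BA and -1.17 to 0.289 for 6-BA added to NAA. LOC110108726 ranged from -0.007 to 0.736 for 6-BA against water and -1.199 to 3.223 for the dose slope, LOC110114174 from -1.518 to 1.829 for the interaction and LOC110101453 from -0.092 to 0.699 for the dose slope. The causes were not tested.

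Same-numbered young libraries did not deviate together (correlations from -0.136 to 0.196), so the numbers were not taken to pair them. With the replicate block 3 lectins were called for 6-BA against water and 2 for NAA against water. For both hormones against water, 6-BA added to NAA and 6-BA averaged over NAA, 3 each were called. These counts include LOC110114174 and are not set beside the share of all genes called under the block. The calls for 6-BA against water and 6-BA averaged over NAA describe the setting and test nothing. The other counts share libraries with these contrasts and are not independent of the choice of lectins. LOC110113710 gained 3 calls under the block, and LOC110104045 lost 1 (-2.466). In older plantlets depth limits LOC110114174, at 3 or fewer counts.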
